A study of Caenorhabditis elegans with 12 samples.

Results

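The nuclear hormone receptor (nhr) genes of the nematode Caenorhabditis elegans were examined, taken as every gene in the 12 count tables whose WBcel235 symbol starts with nhr-. There were 269 such genes among 46739 listed genes. Of these, 177 had enough reads to be tested among the 14390 tested genes, 92 did not, and 23 of the 92 had no count in any library. RNA was sequenced from whole worms raised at 20 °C to the late L4 larval stage, in 3 libraries of each of 4 genotypes. The genotypes were wild-type N2, the mutant eat-2(ad465), the mutant acs-20(tm3232), and the double mutant eat-2(ad465); acs-20(tm3232). Each mutation was represented by 1 allele, and no group carried a mutated nhr gene by design. Effects ascribed below to a mutation cannot be told apart from those of other variants linked to that allele. The eat-2 product is a subunit of a nicotinic acetylcholine receptor of the feeding muscle, and slow-feeding eat-2 worms are widely used as a model of dietary restriction. The acs-20 product is a fatty acid transport protein and acyl-CoA synthetase that the cuticle barrier needs. In whole worms, fewer cells of a type and less RNA per cell cannot be told apart.

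Nuclear hormone receptors are transcription factors with a zinc-finger domain that binds DNA and, in most members, a second domain that can bind a small lipophilic ligand. The worm genome carries an unusually large set of them, most derived from an ancestor like the vertebrate receptor HNF4, and most have no known ligand. Several link diet to metabolism. NHR-49 drives fatty acid oxidation and desaturation, NHR-80 acts beside it on the desaturase genes, and NHR-10 and NHR-68 switch on an alternative route of propionate breakdown when vitamin B12 is scarce.

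Counts in genes ran from 7116623 to 12016769 per library, and the nhr genes together took 0.189 to 0.263% of them. The eat-2 gene had 8 counts over all libraries and could not check the labels, and the acs-20 gene was read in every library, at 115.3 ± 22.9 CPM in wild-type and 104 ± 8.91 CPM in acs-20 (SD, n = 3). Between these genotypes its log2 fold change was -0.15 (SE 0.135, adjusted p = 0.658), so its count did not tell them apart, and in the double mutant it fell by 0.54 against wild-type (adjusted p = 0.0148), a call that ended on dropping wild-type replicate 1 or 3 or double mutant replicate 2 (up to 0.0712). Among the fixed markers of tissue and stage, no germline, sperm or oocyte gene was called in any comparison, and none of these lists had a gene at 0. Summed oocyte levels varied within genotypes, at 189.3 to 499.8 CPM in wild-type and 272.9 to 624.7 in eat-2. They ran from 285.3 to 622.4 in acs-20 and from 385 to 521 in the double mutant. Summed germline levels ran from 429.3 to 753.6 CPM in wild-type. With this spread the lack of calls does not show that the genotypes were matched in stage. Of 5 adult cuticle genes 4 fell in the double mutant against wild-type, with a summed level of 6332 to 9029 CPM in wild-type and 2558 to 4538 in the double mutant, and 2 of 5 moulting genes fell with them. Summed adult cuticle levels were 4199 to 6724 CPM in eat-2, where none of the 5 was called, and 6890 to 7655 in acs-20. The other adult cuticle gene, col-19, ran from 108.9 to 580.7 CPM in wild-type and 63.95 to 409.2 in acs-20. It ran from 40.97 to 79.54 CPM in eat-2, below every wild-type library though not called, and from 78.08 to 274 in the double mutant. Of 4 epidermis genes 1, dpy-13, fell in the double mutant against wild-type and against acs-20. Summed epidermis levels were 2740 to 4155 CPM in wild-type, 3595 to 3898 in acs-20 and 2050 to 2511 in the double mutant. Of 4 neuron genes 1, egl-3, rose in the double mutant against acs-20. That call ended in 4 of the 12 fits without a library (up to 0.133). Of 3 pharyngeal muscle genes all 3 fell in acs-20 against wild-type, with summed levels of 171 to 197 and 66.01 to 103 CPM, and all 3 rose in the double mutant against acs-20. In eat-2 against wild-type 1 of these 3 fell, myo-2 (-0.66, adjusted p = 0.0276), with a summed level of 110.3 to 142.4 CPM in eat-2. There 1 of 5 intestine genes, ges-1, also fell (-0.51, adjusted p = 0.0133), with summed levels of 3081 to 3226 CPM in wild-type and 2880 to 3896 in eat-2, and 1 of 3 body wall muscle genes, unc-15 (-0.37, adjusted p = 0.0429), with 5600 to 6502 and 4260 to 5204 CPM. Both ges-1 (-0.61, adjusted p = 0.00245) and unc-15 (-0.35, adjusted p = 0.0297) fell in the double mutant against wild-type as well. In eat-2 against wild-type the calls of unc-15, myo-2 and ges-1 ended in 6, 5 and 3 of the 12 fits without a library. Adjusted p reached 0.179, 0.117 and 0.0693 in those fits. In the double mutant against wild-type the call of unc-15 ended in 4 (up to 0.125), and that of ges-1 held in all. The part of stage and tissue makeup in the nhr results was not tested. Some libraries stood apart within their genotype: replicate 1 was the highest library for 126 of the 177 tested nhr genes in eat-2 (71.2%, against 41.8% of all tested genes). It was highest for 97 in acs-20 (54.8%, against 35.3%) and for 91 in the double mutant (51.4%, against 38%).

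Levels are given in CPM, counts set to a common library size with TMM factors, and changes as log2 fold changes between genotypes. Every adjusted p comes from edgeR's quasi-likelihood test, with Benjamini-Hochberg adjustment over all 14390 tested genes, and a call means an adjusted p under 0.05. Most nhr genes were weakly expressed. Per kilobase of exon, the median level of the 177 tested nhr genes was 3.34 CPM, against 10 CPM for all tested genes. The highest level per kilobase was that of nhr-114, a receptor needed to cope with dietary shortage of vitamin B12 and excess tryptophan, at 162 CPM. It was followed by nhr-8, a receptor of xenobiotic defence and cholesterol balance, at 100 CPM, and by nhr-68 at 59.2 CPM and nhr-49 at 42.6 CPM. The other metabolic receptors stood lower, nhr-10 at 12.1 CPM per kilobase (rank 17) and nhr-80 at 11.8 (rank 19). The 92 untested genes held little of the signal: tested nhr genes carried 99.5 to 99.7% of the nhr counts in each library, and no untested one averaged more than 0.649 CPM.

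What the eat-2 mutation changes where acs-20 is intact was read from eat-2 against wild-type, in which 18 of the 177 tested nhr genes rose and 1 fell, or 10.7%, where 7.67% of all tested genes were called. The family leaned upward: 10.2% of nhr genes rose against 4.12% of all genes, and 0.565% fell against 3.54%. Their median log2 fold change was 0.22, against 0.04 for all genes, and the libraries of the 2 genotypes did not overlap for 60 of the 177 (33.9%, against 24.6% of all genes). Leaving out wild-type replicates 1 or 3 reduced the 19 calls to 7 or 9, and leaving out eat-2 replicates 1 or 3 reduced them to 8 or 10. Without eat-2 replicate 1 the nhr median was 0.11.

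The same mutation measured in acs-20 worms, by comparing the double mutant with acs-20, gave 29 nhr genes up and 2 down, or 17.5%, against 12.9% of all genes. Here 16.4% of nhr genes rose against 7.64% of all genes, and 1.13% fell against 5.31%. The median log2 fold change was 0.33 for nhr genes and 0.02 for all genes, and 153 of 177 had a value above 0. Libraries did not overlap for 81 nhr genes (45.8%, against 33.6%). The calls numbered 17 or 11 when acs-20 replicates 1 or 3 were left out, with 7.21 or 6.25% of all genes called. They numbered 17 or 20 when double mutant replicates 1 or 2 were left out, with 6.9 or 6.85% of all genes called. In these fits, in that order, 17, 10, 16 and 20 nhr genes rose, where 4.87, 3.96, 4.29 and 4.62% of all genes rose.

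For the acs-20 mutation few nhr genes were called, at shares near those of all genes. Against wild-type, 3 rose in acs-20 and 0 fell in edgeR's test, or 1.69%, against 2.21% of all genes (0.987% up and 1.22% down), 42 did not overlap between the genotypes (23.7%, against 21.2%), 23 had an unadjusted p under 0.05, and the median nhr log2 fold change was -0.10, against 0.01 for all genes. In eat-2 worms, that is in the double mutant against eat-2, 3 rose and 1 fell, or 2.26%, against 2.11% of all genes (1.36% up and 0.757% down), and 29 did not overlap (16.4%, against 16.7%). Both mutations together, in the double mutant against wild-type, raised 27 nhr genes and lowered 5, or 18.1%, a share close to the 17.6% of all genes, though 15.3% rose against 8.94% and 2.82% fell against 8.62%. Libraries did not overlap for 73 nhr genes (41.2%, against 36.2%). Without wild-type replicate 3 the calls numbered 21. The interaction, the effect of the eat-2 mutation on an acs-20 background minus its effect where acs-20 is intact, was called for 1 nhr gene (0.565%, against 0.188% of all genes, 0.139% up and 0.0486% down), and 13 nhr genes had an unadjusted p under 0.05. Shares of all tested genes under that unadjusted threshold were not computed, so nothing about the family is read from this count or the 23 above. Across the 5 pairwise comparisons 48 of the 177 were called at least once, or 27.1%, against 23.3% of all tested genes.

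**Figure D1:**
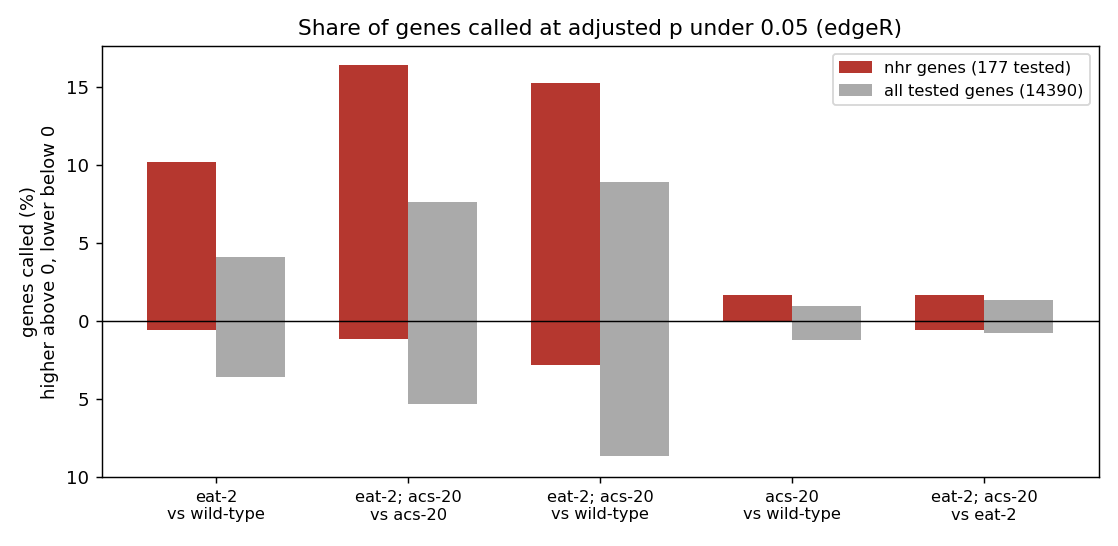
Share of genes called higher (bars above 0) and lower (bars below 0) in percent of those tested, for the 177 tested nhr genes (red) and all 14390 tested genes (grey), in 5 comparisons. In the 3 comparisons that differ by the eat-2 mutation the red bars are longer than the grey ones above 0, at 10.2, 16.4 and 15.3%, and shorter below 0.

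Of the 4 metabolic receptors, nhr-80 was called in eat-2 against wild-type and in the double mutant against eat-2, and the other 3 were called in none of the 5 comparisons. Its 3 wild-type libraries held 14.3, 16.7 and 20.4 CPM, the eat-2 libraries 43.0, 32.1 and 33.4, the acs-20 libraries 14.4, 14.8 and 19.4, and the double mutant libraries 17.0, 17.5 and 17.8. All 3 eat-2 libraries lay above all 9 others, while the other 3 genotypes overlapped. It rose in eat-2 against wild-type by a log2 of 1.08 (SE 0.156, adjusted p = 0.000826), a fold of 2.11, and fell in the double mutant against eat-2 by 1.05 (SE 0.156, adjusted p = 0.00237). In acs-20 worms the eat-2 mutation gave 0.12 (95% interval -0.23 to 0.47, adjusted p = 0.711). The interaction itself, -0.96 (SE 0.226), had an adjusted p of 0.122, so the difference between the backgrounds did not pass the test over all genes.

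For nhr-49, the wild-type libraries held 80.04, 82.9 and 90.96 CPM, the eat-2 libraries 109, 92.6 and 100, acs-20 libraries 93.5, 81.4 and 90.9, and double mutant libraries 87.6, 93.3 and 87.7. The eat-2 libraries lay above the wild-type ones without overlap, and the double mutant libraries lay among those of wild-type and acs-20. In eat-2 against wild-type its change was 0.25 (SE 0.0944, 95% interval 0.04 to 0.45, adjusted p = 0.138) and in the double mutant against wild-type 0.08 (95% interval -0.12 to 0.28).

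The propionate regulators nhr-10 and nhr-68 differed from each other. For nhr-10 the 12 libraries ran from 15.7 to 21.4 CPM with all genotypes overlapping, and the group means were 18.2 ± 2.34 in wild-type, 18.4 ± 2.02 for eat-2, 18.95 ± 1.87 for acs-20 and 19.6 ± 1.56 for the double mutant (SD, n = 3). Its 5 pairwise log2 fold changes lay between 0.01 and 0.10, with adjusted p from 0.663 to 0.982. For nhr-68 the wild-type libraries held 83.8, 76.5 and 95.6 CPM, the eat-2 libraries 106, 80.7 and 99.6, the acs-20 libraries 67.4, 56.2 and 62.8, and the double mutant libraries 76.4, 66.6 and 75.7. The 6 libraries with the acs-20 mutation all lay below the 6 without it, the highest of them at 76.4 against a lowest of 76.5 CPM. The differences behind this, -0.46 in acs-20 against wild-type (SE 0.123, adjusted p = 0.0793) and -0.39 in the double mutant against eat-2 (SE 0.122, adjusted p = 0.137), did not pass the test. Set against each other, the single mutants differed in nhr-68 (eat-2 over acs-20 by 0.62, SE 0.123, adjusted p = 0.00481), in a comparison that called 30 nhr genes (16.9%, 28 of them higher in eat-2), against 11% of all genes (7.03% up and 3.92% down). In that comparison 65 nhr genes did not overlap (36.7%, against 28.6% of all genes).

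**Figure D2:**
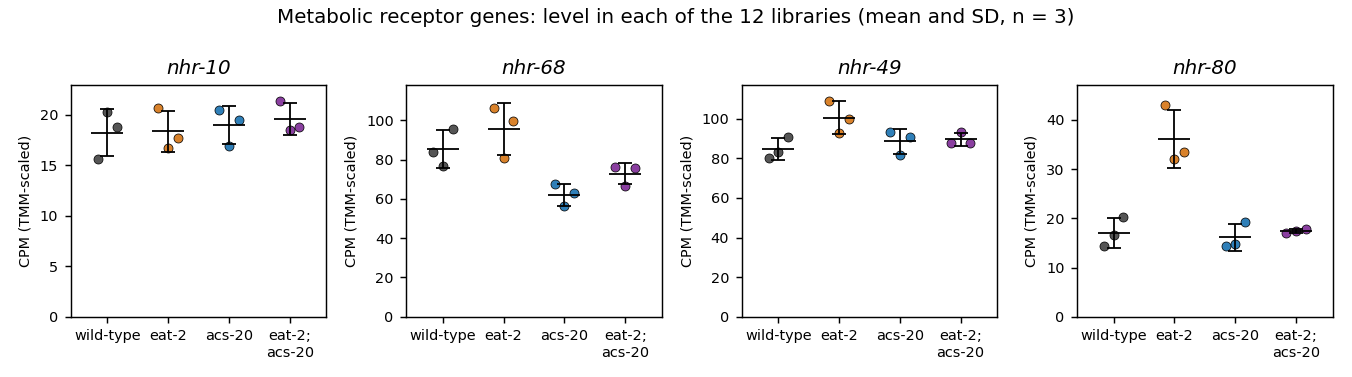
Level in CPM (vertical axis, from 0) of nhr-10, nhr-68, nhr-49 and nhr-80 in each library of the 4 genotypes, with points for libraries and bars for the mean and SD of 3. The eat-2 points of nhr-80, at 32.1 to 43.0, stand clear of the rest, and the acs-20 and double mutant points of nhr-68, at 56.2 to 76.4, lie below the others.

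The genes nhr-66 and nhr-13, whose products also bind NHR-49, were not called. The level of nhr-66 was 45.3 ± 2.51, 49.8 ± 3.31, 49.7 ± 3.68 and 51.4 ± 2.43 CPM over wild-type, eat-2, acs-20 and double mutant libraries, in that order (SD, n = 3), and that of nhr-13 lay between 5.0 and 7.84 CPM in the 12 libraries. Among 5 cofactor genes the Mediator subunit gene mdt-15, whose product is a coactivator of NHR-49, was not called (-0.24 in acs-20 against wild-type, adjusted p = 0.215). The gene hlh-30, which encodes the worm TFEB, a regulator of autophagy genes, rose in the double mutant against wild-type by 0.32 (SE 0.0945, adjusted p = 0.0334) and against acs-20 by 0.33 (adjusted p = 0.0373). Each of these calls ended in 7 of the 12 fits without a library, for both those without wild-type replicate 1, eat-2 replicate 3, acs-20 replicates 2 or 3 or double mutant replicates 2 or 3, with wild-type replicate 2 for the first and acs-20 replicate 1 for the second (up to 0.162 and 0.168).

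Genes that these receptors are known to regulate moved in both directions. Of 9 listed NHR-49 targets, 3 rose and 2 fell in eat-2 against wild-type. The 3 that rose were the desaturase gene fat-5 (1.45, adjusted p = 0.00016), the hydroxyacyl-CoA dehydrogenase gene hacd-1 (1.35, adjusted p = 0.000526) and the flavin monooxygenase gene fmo-2 (2.51, adjusted p = 0.00712). The 2 that fell were the carnitine palmitoyltransferase gene cpt-5 (-1.27, adjusted p = 0.000284) and the glyoxylate enzyme gene icl-1 (-0.75, adjusted p = 0.0346), whose call ended on dropping any wild-type or eat-2 library (up to 0.1). In the double mutant against wild-type 4 rose and 2 fell, with the acyl-CoA synthetase gene acs-2 now among the increases (1.65, adjusted p = 0.0133) and the desaturase gene fat-7 among the decreases (-1.26, adjusted p = 0.00044). In acs-20 against wild-type fat-5 alone was called of the 9 (1.28, adjusted p = 0.000962). The acs-2 value rested on double mutant replicate 1, at 35.35 CPM beside 15.34 and 11.28 in the others: without it the change was 1.02 (adjusted p = 0.0257), and the call ended on dropping wild-type replicate 1 or 3 (up to 0.0621).

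The targets that NHR-10 and NHR-68 activate, the 5 genes of the propionate shunt, went one way. All 5 fell in acs-20 against wild-type and in the double mutant against wild-type, and 3 fell in eat-2 against wild-type. The acyl-CoA dehydrogenase gene acdh-1 held 2413, 2112 and 2589 CPM in wild-type, 2088, 1602 and 1973 for eat-2, 1643, 1408 and 1454 for acs-20, and 1095, 1095 and 1344 for the double mutant. The wild-type libraries lay highest and the double mutant libraries lowest, with no overlap of either with acs-20. The call of acdh-1 in acs-20 against wild-type ended without acs-20 replicate 3 (adjusted p = 0.0585). There the call of another of the 5, alh-8, ended in 5 of the 12 fits without a library (up to 0.162). In eat-2 against wild-type the call of ech-6 ended in 3 such fits (up to 0.0916). That of hphd-1 ended there in 1 (0.0521). In the double mutant against wild-type all 5 calls held in every such fit. The median log2 fold change of the 5 was -0.53 for eat-2, -0.81 for acs-20 and -1.36 for the double mutant, each against wild-type. For all genes the medians were near 0. In those comparisons, in that order, nhr-68 stood at 0.16 (adjusted p = 0.499), -0.46 (adjusted p = 0.0793) and -0.23 (adjusted p = 0.227). For nhr-10 the double mutant value was 0.10 (adjusted p = 0.663). In the double mutant against eat-2 the median of the 5 was -0.76, and nhr-68 stood at -0.39 (adjusted p = 0.137).

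Of 6 listed receptors of lipid and nutrient balance, 1 fell in eat-2 against wild-type, 2 fell in the double mutant against wild-type, and 1 rose and 1 fell in the double mutant against acs-20. The member that fell in all 3 was nhr-76, which acts in the serotonin control of body fat. Its libraries held 11.6, 14.9 and 12.6 CPM in wild-type, 9.65, 7.21 and 9.14 for eat-2, 12.2, 13.2 and 9.54 for acs-20, and 7.12, 6.55 and 7.60 for the double mutant. The double mutant libraries overlapped only those of eat-2, and the lowest acs-20 library was below the highest eat-2 one. It fell by 0.88 in the double mutant against wild-type (SE 0.171, adjusted p = 0.00336) and by 0.72 against acs-20 (SE 0.174, adjusted p = 0.0167). In eat-2 against wild-type the fall of 0.59 (SE 0.17) was at the threshold, with an adjusted p of 0.0499. That call ended in 10 of the 12 fits without a library, all but those without acs-20 replicate 3 and double mutant replicate 1, and in a fit to the compared libraries alone (0.0772). The call against acs-20 ended without acs-20 replicates 1 or 2 or double mutant replicate 2 (up to 0.0646).

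The most strongly expressed receptor gene, nhr-114, was lowest in the double mutant. It held 308, 281 and 332 CPM in wild-type, 266, 187 and 232 for eat-2, 295, 217 and 275 for acs-20, and 122, 214 and 227 for the double mutant. The wild-type libraries lay above those of eat-2 and the double mutant and overlapped acs-20, and double mutant replicate 1 was far below the other 11. The fall against wild-type was 0.71 (SE 0.207, adjusted p = 0.0339). The call was lost when wild-type replicates 1 or 3 or double mutant replicate 1 were dropped, with adjusted p up to 0.109, in a fit to the compared libraries alone (0.056) and without a filter on low counts (0.0891). Of 6 genes of the methionine cycle and related transport that NHR-114 is linked to, 3 fell in the double mutant against wild-type: mel-32 (-0.84, adjusted p = 0.000526), mtrr-1 (-0.82, adjusted p = 0.00252) and pmp-5 (-0.86, adjusted p = 0.000187). In acs-20 against wild-type, where nhr-114 stood at -0.22 (adjusted p = 0.676), pmp-5 (-0.53, adjusted p = 0.0208) and the methionine synthase gene metr-1 (-0.53, adjusted p = 0.0401) fell. The call of pmp-5 there ended without wild-type replicates 1 or 3 or any acs-20 library (up to 0.0976), and that of metr-1 in 7 of the 12 fits without a library (wild-type replicates 1 to 3, eat-2 replicate 3, acs-20 replicates 2 and 3 and double mutant replicate 2, up to 0.138).

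Also in this list, nhr-31, which the excretory cell needs for its proton pump genes, rose in the double mutant against acs-20. Its libraries held 64.3, 59.3 and 60.02 CPM for acs-20 and 81.5, 84.9 and 78.9 for the double mutant, without overlap, a change of 0.42 (SE 0.097, adjusted p = 0.0137). That call ended without acs-20 replicate 3 or double mutant replicate 2 (up to 0.0634). The gene nhr-62, which worms need for longer life under dietary restriction, was not called: its levels were 5.89 ± 1.03, 6.84 ± 0.305, 5.74 ± 0.289 and 7.09 ± 0.343 CPM over wild-type, eat-2, acs-20 and double mutant libraries, in that order (SD, n = 3), and its change in eat-2 against wild-type was 0.22 (SE 0.167, 95% interval -0.14 to 0.58, adjusted p = 0.513). The genes nhr-64 and nhr-69 were not called in any comparison either, with 10.4 to 16.5 and 16.3 to 26.8 CPM over the 12 libraries.

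Among 7 receptors of xenobiotic, stress and immune responses, nhr-112 had the largest changes. Its wild-type libraries held 2.80, 3.58 and 2.31 CPM, the eat-2 libraries 10.3, 8.14 and 9.80, the acs-20 libraries 3.70, 3.05 and 3.65, and the double mutant libraries 23.1, 7.11 and 9.40. Every library with the eat-2 mutation lay above every library without it, and double mutant replicate 1, at 23.1, was far above the next library, at 10.3. It rose by 1.69 in eat-2 against wild-type (SE 0.394, adjusted p = 0.0187), by 2.16 in the double mutant against wild-type (SE 0.386, adjusted p = 0.0023) and by 1.91 in the double mutant against acs-20 (SE 0.386, adjusted p = 0.00703). The first of these was lost when replicates 1 or 3 of either genotype were dropped, with adjusted p up to 0.0767. Without double mutant replicate 1 the other 2 values were 1.49 and 1.24, still called, and the last ended in a fit to the compared libraries alone (adjusted p = 0.0521).

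In the same list nhr-45 rose in the double mutant, from 27.1 ± 1.96 CPM in wild-type and 24.3 ± 1.79 in acs-20 to 40.7 ± 9.29 (SD, n = 3). The change was 0.58 against wild-type (SE 0.151, adjusted p = 0.0178) and 0.74 against acs-20 (SE 0.153, adjusted p = 0.00752), and the first ended without wild-type replicate 1 or double mutant replicate 1 (up to 0.0884). The intestinal iron regulator nhr-14 rose in the double mutant against wild-type, from 26.6 ± 4.11 to 38.2 ± 3.45 CPM, by 0.52 (SE 0.137, adjusted p = 0.0179). That call ended without wild-type replicates 2 or 3 or double mutant replicates 1 or 2 (up to 0.085). Next to nhr-114 the strongest receptor gene per kilobase, nhr-8, was just outside the threshold. It ran from 139 to 272 CPM across the wild-type libraries, 173 to 227 across eat-2, 169 to 250 across acs-20 and 108 to 144 across the double mutant. The double mutant libraries lay below all others except wild-type replicate 2. Its double mutant values were -0.72 against wild-type (SE 0.23, adjusted p = 0.0511) and -0.74 against acs-20 (SE 0.231, adjusted p = 0.0549). Not called in any comparison were nhr-86, a sensor of bacterial metabolites, nhr-57, a gene induced by low oxygen, and nhr-176, a receptor of drug detoxification, with 22.3 to 29.0, 1.05 to 5.39 and 1.63 to 5.07 CPM.

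Of 9 developmental receptor genes 8 were tested, and nhr-2, a receptor of the early embryo, had 29 counts over all libraries. In eat-2 against wild-type 1 rose, in the double mutant against wild-type 4 rose, and in the double mutant against acs-20 3 rose and 1 fell. The largest change was that of nhr-6, the worm NR4A receptor, which is needed to form the spermatheca. Its libraries held 2.59, 4.33 and 2.51 CPM in wild-type, 10.01, 7.33 and 5.93 for eat-2, 3.06, 3.70 and 3.65 for acs-20, and 22.4, 9.36 and 7.60 for the double mutant. The 6 libraries with the eat-2 mutation lay above the 6 without it, and double mutant replicate 1 was again the highest. It rose by 2.03 in the double mutant against wild-type (SE 0.396, adjusted p = 0.004) and by 1.90 against acs-20 (SE 0.401, adjusted p = 0.00925), while eat-2 against wild-type gave 1.28 (SE 0.409, adjusted p = 0.0773). Without double mutant replicate 1 the first 2 values were 1.40 and 1.27, still called.

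The moulting regulators nhr-23 and nhr-25 rose as well. For nhr-23, an ROR-like receptor that drives each moult, the libraries held 37.8, 51.0 and 38.1 CPM in wild-type, 59.96, 65.9 and 61.9 for eat-2, 45.9, 40.2 and 45.6 for acs-20, and 50.7, 59.9 and 63.1 for the double mutant. The eat-2 libraries lay above all wild-type and acs-20 ones, and the lowest double mutant library fell just below the highest wild-type one. It rose by 0.56 in eat-2 (SE 0.126, adjusted p = 0.0149) and by 0.45 in the double mutant (SE 0.126, adjusted p = 0.0244), each against wild-type. The first call ended without wild-type replicates 1 or 3 or eat-2 replicate 2 (up to 0.0806), and the second without wild-type replicates 1 or 3 or double mutant replicates 2 or 3 (up to 0.114) or in the fit to the compared libraries alone (0.0669). For nhr-25, the Ftz-F1 homologue of the epidermis, the level went from 9.83 ± 2.59 in wild-type and 10.1 ± 1.51 in acs-20 to 19.9 ± 5.24 CPM in the double mutant (SD, n = 3). It rose there by 1.02 against wild-type (SE 0.251, adjusted p = 0.0136), a call lost without wild-type replicate 3 or double mutant replicate 2 (up to 0.0706), and by 0.98 against acs-20 (SE 0.254, adjusted p = 0.0236), lost without acs-20 replicates 1 or 3 or double mutant replicates 1 or 2 (up to 0.107). Beside these, the moulting genes mlt-10 (-1.05, adjusted p = 0.00836) and nas-37 (-1.02, adjusted p = 0.0326) fell in the double mutant against wild-type, as did the adult cuticle genes bli-1 (-1.30), bli-2 (-1.18), col-38 (-1.07) and rol-1 (-1.12). The calls of nas-37, bli-1 and bli-2 ended on dropping wild-type replicate 1 or 3 or double mutant replicate 1 or 2 (up to 0.129, 0.0858 and 0.101).

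The gene nhr-85, related to Rev-Erb and active in developmental timing with NHR-23, rose in the double mutant against acs-20. Its libraries held 13.7, 15.1 and 9.93 CPM in wild-type, 22.1, 17.7 and 17.99 for eat-2, 8.24, 9.69 and 7.29 for acs-20, and 16.9, 21.0 and 18.6 for the double mutant. The acs-20 libraries lay lowest, then wild-type, and both eat-2 genotypes lay above, with no overlap between those steps. The change was 1.16 against acs-20 (SE 0.177, adjusted p = 0.00116) and 0.55 against wild-type (SE 0.168, adjusted p = 0.0378). The second ended without wild-type replicates 1 or 3, eat-2 replicate 3 or each double mutant library in turn (up to 0.154), and in the fit to the compared libraries alone (0.0653). Of its 2516 exon bases 835 overlap npr-14, a gene on the opposite strand that was itself called in the double mutant against acs-20 (6.48 CPM in acs-20, 13.3 in the double mutant), and with the strand setting unknown their reads cannot be told apart. The gene nhr-41 fell in the double mutant against acs-20, from 41.4 ± 4.85 to 31.04 ± 1.64 CPM (-0.41, SE 0.119, adjusted p = 0.0369), a call that ended in 6 of the 12 fits without a library: wild-type replicate 1, acs-20 replicates 1 or 3, or each double mutant library in turn (up to 0.136). The genes nhr-40, nhr-67 and nhr-91 were not called in those 5 comparisons, while between the single mutants nhr-40 (0.61, adjusted p = 0.0164) and nhr-91 (0.84, adjusted p = 0.0182) were higher in eat-2 than in acs-20.

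Receptors that are not named nhr were examined from a fixed list of 5. The vitamin D receptor homologue daf-12, which controls dauer formation, stood at 38.5 ± 4.84, 40.9 ± 9.17, 36.6 ± 7.26 and 38.7 ± 4.05 CPM over wild-type, eat-2, acs-20 and double mutant libraries, in that order (SD, n = 3), and neither it nor sex-1 was called. The genes fax-1, odr-7 and unc-55 were too low to be tested. Of 4 tested genes of the metabolism of dafachronic acid, the DAF-12 ligand, daf-9, the cytochrome P450 of the last step, rose. It held 2.80, 2.64 and 3.21 CPM in wild-type, 10.7, 7.68 and 8.38 for eat-2, 3.80, 2.94 and 3.79 for acs-20, and 8.81, 12.3 and 8.91 for the double mutant, with every eat-2 mutant library above every other. The change was 1.63 in eat-2 against wild-type (SE 0.215, adjusted p = 0.000322) and 1.51 in the double mutant against acs-20 (SE 0.211, adjusted p = 0.00059).

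Outside the role lists, the widest contrast was that of nhr-87 on chromosome IV, a receptor gene without an assigned role here. It was almost silent in wild-type, with 1 count in the 3 libraries together, and had 121 counts for eat-2, 76 for acs-20 and 98 for the double mutant. The libraries held 3.38, 4.19 and 5.37 CPM for eat-2, 3.06, 2.83 and 2.95 for acs-20, and 3.26, 3.37 and 2.86 for the double mutant, against 0.104, 0 and 0 in wild-type. Set against wild-type, the ratio of pooled counts was 133 in eat-2 (exact 95% binomial interval 23.4 to 5300), 89.1 for acs-20 (15.5 to 3570) and 95 for the double mutant (16.7 to 3790), intervals that cover counting error only. Adjusted p-values were 4.52e-06, 2.26e-05 and 7.33e-06. The mutant genotypes differed little: the double mutant against eat-2 gave -0.46 (adjusted p = 0.451) and against acs-20 0.10 (adjusted p = 0.857). It was also the nhr gene called in the interaction (adjusted p = 0.000269).

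Another gene that rose in each mutant was nhr-178 on chromosome V. Its libraries held 1.14, 0.659 and 1.103 CPM in wild-type, 4.46, 3.61 and 4.14 for eat-2, 2.96, 2.07 and 2.10 for acs-20, and 5.67, 4.40 and 4.58 for the double mutant. Wild-type was lowest, acs-20 intermediate and the eat-2 genotypes highest, with overlap only between eat-2 and the double mutant. It rose against wild-type by 2.07 in eat-2 (SE 0.283, adjusted p = 0.000322), by 1.30 in acs-20 (SE 0.297, adjusted p = 0.0298) and by 2.32 in the double mutant (SE 0.278, adjusted p = 6.54e-05). The call in acs-20 ended without any 1 of the wild-type libraries or without acs-20 replicates 1 or 3 (up to 0.143), and in a fit to the compared libraries alone (0.1). Over 49 of its 1474 exon bases it overlaps F16B4.2 on the opposite strand, which ran between 1.96 and 2.64 CPM.

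On chromosome IV, nhr-11 was higher with the acs-20 mutation in both backgrounds. It held 4.04, 5.65 and 4.71 CPM in wild-type, 5.55, 2.91 and 4.33 for eat-2, 13.5, 14.04 and 12.6 for acs-20, and 21.5, 14.2 and 14.96 for the double mutant. The 6 libraries with the acs-20 mutation lay above the 6 without it, with no overlap. The change was 1.48 in acs-20 against wild-type (SE 0.226, adjusted p = 0.00242) and 1.98 in the double mutant against eat-2 (SE 0.229, adjusted p = 0.000308), and the interaction of 0.50 had an adjusted p of 0.792. On chromosome V, nhr-155 was likewise higher in the libraries with the acs-20 mutation, at 4.44, 1.09 and 1.82 CPM for acs-20 and 3.38, 4.12 and 5.15 for the double mutant, against 0.702 to 1.04 in wild-type and 0.362 to 0.754 in eat-2. It rose in the double mutant by 2.35 against wild-type (SE 0.467, adjusted p = 0.0026) and by 2.85 against eat-2 (SE 0.532, adjusted p = 0.00519). In acs-20 against wild-type, with replicate 1 far above the other libraries of that genotype, the value of 1.58 was not called (SE 0.491, adjusted p = 0.12). The third gene to rise in the double mutant against eat-2 was nhr-3, from 30.3 ± 6.78 to 55.3 ± 7.62 CPM (0.86, SE 0.188, adjusted p = 0.0314), a call lost without eat-2 replicates 2 or 3 or double mutant replicates 1 or 2 (up to 0.144).

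With the libraries split by mutation, 2 nhr genes were higher (1.13%, against 1.23% of all genes) and 2 lower (1.13%, against 0.771%) in all 6 libraries with the acs-20 mutation than in all 6 without it. These were nhr-11 and nhr-155, and nhr-68 and nhr-181. For the eat-2 mutation 23 were higher (13%, against 5.19% of all genes) and 0 lower (0%, against 3.8%).

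The gene nhr-265 on chromosome I was higher in every library with the eat-2 mutation than in every library without it. Its libraries held 1.24, 2.07 and 1.00 CPM in wild-type, 3.38, 3.14 and 4.14 for eat-2, 0.739, 0.218 and 0.561 for acs-20, and 3.38, 5.43 and 6.30 for the double mutant. The acs-20 libraries lay below wild-type, and both lay below the eat-2 genotypes. It rose by 1.29 in eat-2 against wild-type (SE 0.348, adjusted p = 0.0335) and by 3.30 in the double mutant against acs-20 (SE 0.471, adjusted p = 0.000223), the largest fitted increase among nhr genes in that comparison. In acs-20 against wild-type its value of -1.50 was not called (SE 0.505, adjusted p = 0.147). The first call was lost on dropping each eat-2 library in turn or wild-type replicates 1 or 3 (up to 0.128). The interaction was 2.01 (SE 0.586, adjusted p = 0.268).

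Few receptor genes fell, and nhr-234 on chromosome II fell furthest. It held 7.47, 8.38 and 16.2 CPM in wild-type, 2.895, 3.49 and 7.06 for eat-2, 4.44, 3.37 and 5.05 for acs-20, and 0.724, 1.40 and 2.94 for the double mutant. Every mutant library lay below every wild-type library, and the double mutant libraries overlapped only the lowest of eat-2. The change in the double mutant against wild-type was -2.58 (SE 0.477, adjusted p = 0.00257), or -3.28 without double mutant replicate 3, while eat-2 (-1.22, adjusted p = 0.1) and acs-20 (-1.32, adjusted p = 0.163) were not called. Beside nhr-76 and nhr-114, the other decreases there were nhr-181 (-1.05, SE 0.284, adjusted p = 0.0199) and nhr-156 (-0.93, SE 0.294, adjusted p = 0.0421). The call of nhr-181 ended without wild-type replicate 3 or double mutant replicates 1 or 2 (up to 0.105), and that of nhr-156 in 8 of the 12 fits without a library (up to 0.167).

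**Figure D3:**
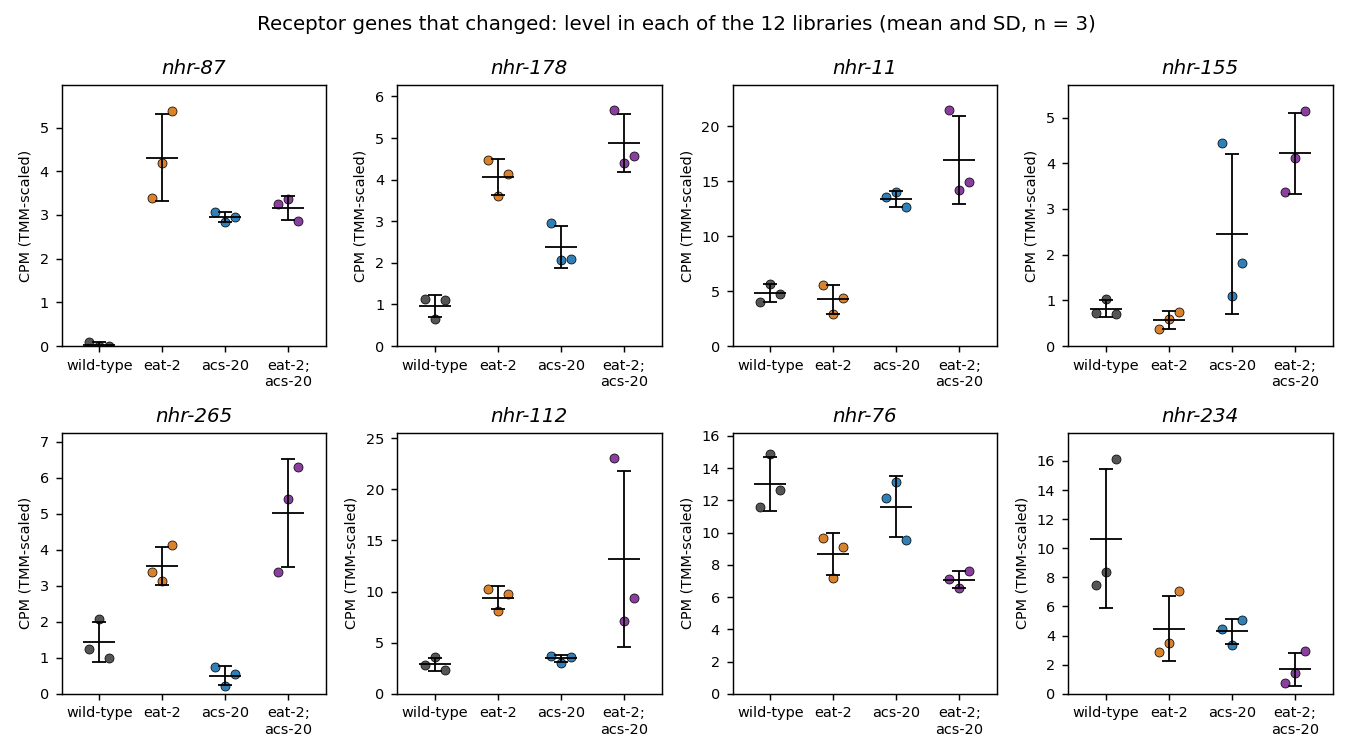
Level in CPM (vertical axis, from 0) of 8 nhr genes in each library of the 4 genotypes, with points for libraries and bars for the mean and SD of 3. Wild-type is near 0 for nhr-87, nhr-11 is high in acs-20 and the double mutant, nhr-112 and nhr-265 are high in eat-2 and the double mutant, and nhr-76 and nhr-234 are lowest in the double mutant.

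The effect of the eat-2 mutation could be compared between backgrounds, since eat-2 against wild-type and the double mutant against acs-20 share no library. Called in both were 12 nhr genes, 63.2% of the 19 in the first comparison and 38.7% of the 31 in the second, and for all genes the shares were 63.7 and 37.7%. Of the 12, 11 rose in both: nhr-19, nhr-21, nhr-34, nhr-50, nhr-63, nhr-99, nhr-112, nhr-137, nhr-178, nhr-232 and nhr-265. The exception, nhr-76, fell in both. Positive log2 fold changes in both comparisons were found for 122 of 177 nhr genes (68.9%), against 38.6% of all tested genes. Negative ones in both were found for 14 of 177, against 4384 of the 14390 tested genes.

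Among these 11, nhr-19, nhr-21 and nhr-232 were nearly equal between the eat-2 genotypes. For nhr-21 on chromosome II the libraries held 11.8, 11.1 and 11.3 CPM in wild-type, 19.8, 18.7 and 22.1 for eat-2, 11.8, 9.04 and 13.3 for acs-20, and 23.7, 19.9 and 18.2 for the double mutant. The libraries fell into a lower set without the eat-2 mutation and a higher set with it. The change was 0.83 in eat-2 against wild-type (SE 0.152, adjusted p = 0.00436) and 0.86 in the double mutant against acs-20 (SE 0.153, adjusted p = 0.00307), with an interaction of 0.03 (95% interval -0.43 to 0.49). The values were 0.94 and 0.92 for nhr-19 (adjusted p = 0.00677 and 0.00616), also on chromosome II, and 1.11 and 0.81 for nhr-232 (adjusted p = 0.00096 and 0.00649) on chromosome V. Of the exon bases of nhr-232, 21.5% overlap sri-18 on the opposite strand, a gene at 0.213 CPM or less in every genotype. On the X chromosome nhr-137 gave 0.88 and 0.70 (adjusted p = 0.00954 and 0.0218), and its second call ended when any 1 of the acs-20 libraries or double mutant replicate 1 was left out (up to 0.0991).

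**Figure D4:**
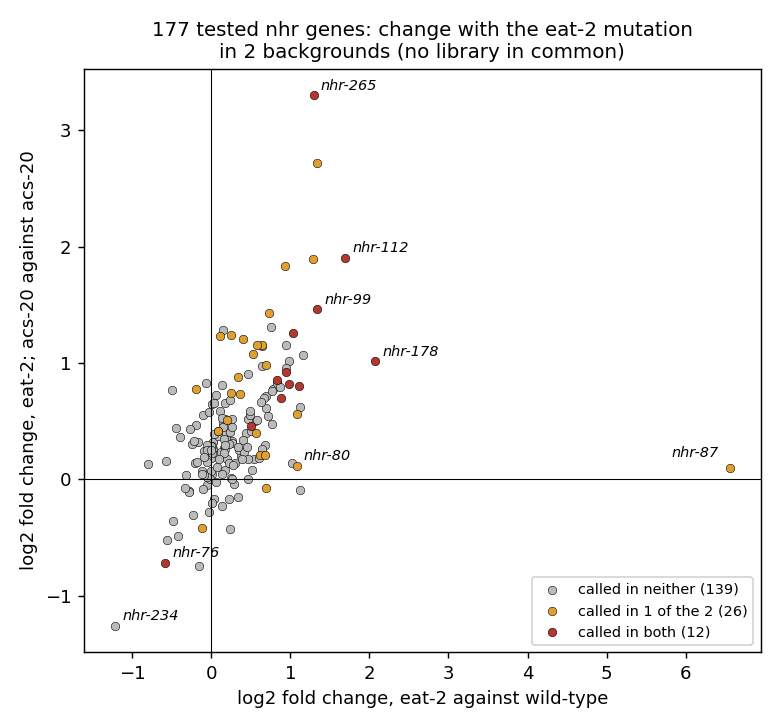
Log2 fold change of each of the 177 tested nhr genes with the eat-2 mutation, in eat-2 against wild-type (horizontal axis) and in the double mutant against acs-20 (vertical axis), with colours for genes called in neither comparison (139), in 1 of them (26) or in both (12). Most points lie to the upper right, nhr-80 lies near the horizontal axis, and the horizontal place of nhr-87 depends on the prior count because wild-type held 1 count.

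The remaining calls are given by their log2 fold changes. In eat-2 against wild-type nhr-99 (1.34), nhr-142 (1.09), nhr-63 (1.03), nhr-50 (0.98), nhr-106 (0.69), nhr-58 (0.67), nhr-130 (0.62) and nhr-34 (0.50) rose, with adjusted p between 0.022 and 0.0469. Each of these 8 was lost in at least 3 of the 12 fits without a library. In the double mutant against wild-type nhr-147 (2.03), nhr-63 (1.79), nhr-163 (1.75), nhr-50 (1.58), nhr-98 (1.25), nhr-99 (1.23), nhr-142 (1.17), nhr-232 (1.08), nhr-137 (1.07), nhr-19 (0.96), nhr-21 (0.85), nhr-58 (0.68), nhr-55 (0.61), nhr-3 (0.60) and nhr-180 (0.55) rose. There nhr-11 and nhr-265 rose too, by 1.58 to 1.92 and by 1.60 to 2.16 over the 12 fits without a library. Of the 32 calls in that comparison 17 held in every fit without a library, and nhr-180 held in none. Without double mutant replicate 1 the value of nhr-99 was 0.62 (adjusted p = 0.158). In 19 of the 27 that rose, double mutant replicate 1 was the highest library of its genotype (70.4%, against 38% of all tested genes).

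In the double mutant against acs-20, the increases not yet named were nhr-162 (1.43), nhr-270 (1.84), nhr-139 (1.24), nhr-225 (1.24), nhr-161 (1.21), nhr-55 (1.16), nhr-98 (1.08), nhr-5 (0.88), nhr-120 (0.78), nhr-180 (0.74), nhr-88 (0.51) and nhr-46 (0.42). To these comes nhr-150, with 3 counts for acs-20 and 26 for the double mutant, a ratio of pooled counts of 7.16 (exact 95% binomial interval 2.19 to 37), a call lost without wild-type replicate 1, eat-2 replicate 3, any acs-20 library or double mutant replicates 1 or 3 (up to 0.126). Of the 31 calls in that comparison 10 held in every fit without a library: nhr-6, nhr-19, nhr-21, nhr-45, nhr-55, nhr-63, nhr-85, nhr-112, nhr-232 and nhr-265. The 7 of 19 that held in eat-2 against wild-type were nhr-19, nhr-21, nhr-80, nhr-87, nhr-137, nhr-178 and nhr-232.

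**Figure D5:**
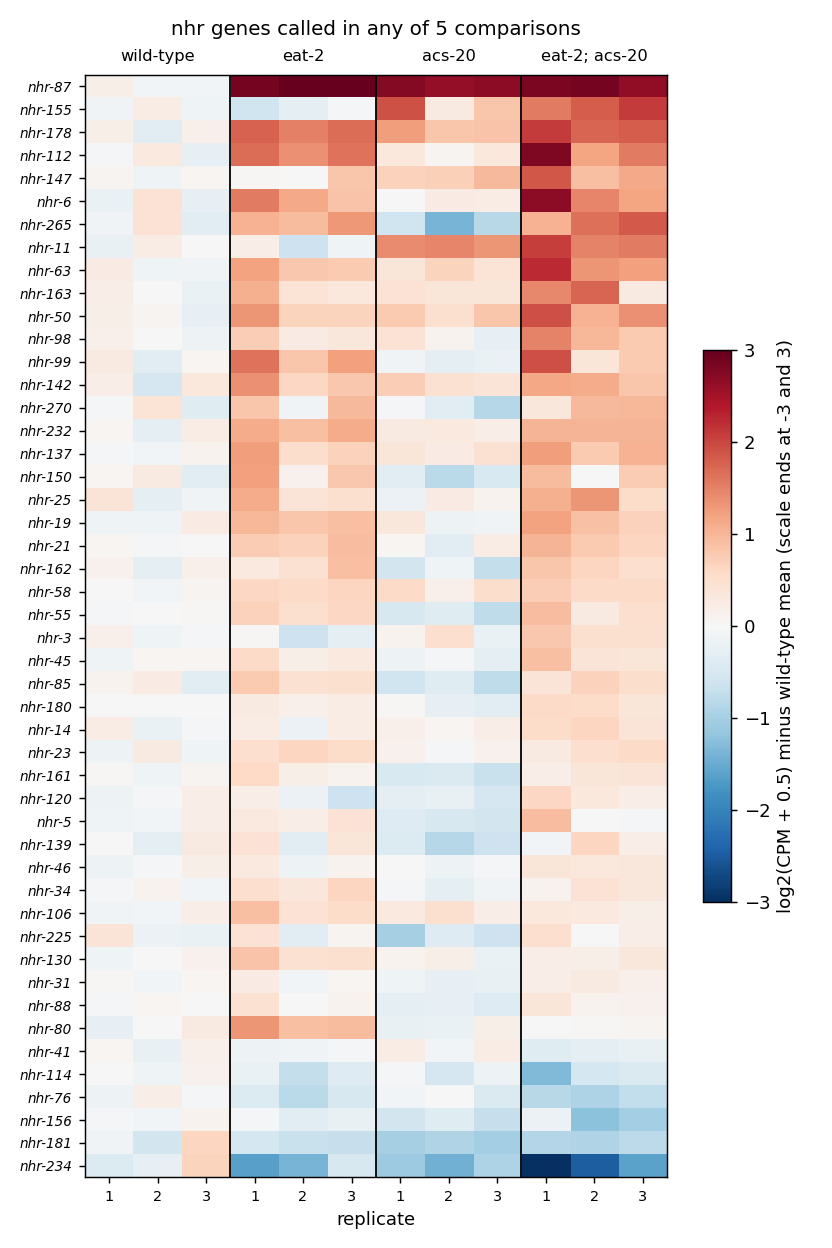
Log2(CPM + 0.5) minus the wild-type mean (colour, with the scale ending at -3 and 3) of the 48 nhr genes called in any of 5 pairwise comparisons (rows, ordered by the change in the double mutant against wild-type) in each library (columns). Red rows fill the eat-2 and double mutant columns for most genes, the acs-20 columns are pale or blue for many of them, and the lowest rows are blue in the double mutant.

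By position, the family is concentrated on chromosome V in the Ensembl annotation of WBcel235, with 167 of the 269 genes, and 33 on IV, 23 on X, 23 on I, 15 on II and 8 on III. Of the 111 tested genes on V, 10 rose in eat-2 against wild-type with a median log2 fold change of 0.25, and of the 66 on the other chromosomes 8 rose and 1 fell with a median of 0.16. In the double mutant against acs-20 the medians were 0.39 on V and 0.30 elsewhere. Of the 269 genes 137 have another nhr gene as direct neighbour, in 93 pairs, of which 54 had both members tested. Both members were called in 1 such pair in eat-2 against wild-type, nhr-50 with nhr-63, and in 2 in the double mutant against acs-20, which adds nhr-55 with nhr-99. The longest run of neighbours, 9 genes on chromosome V, held no tested gene. Shares of all tested genes by chromosome or in neighbouring pairs were not computed, so no effect of position is read from these counts.

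By level, calls in any of the 5 comparisons were made for 2 of 8 tested nhr genes under 1 CPM, 28 of 123 at 1 to 10 CPM (22.8%) and 18 of 46 over 10 CPM (39.1%). The shares of all tested genes in those ranges were 21.1, 18.3 and 27.1%. Of the 48 called genes 12 have exons that overlap an exon on the opposite strand, as do 38 of the 177 tested nhr genes. For nhr-147, 15% of its exon bases are shared with nhr-149 on the opposite strand (0.259 CPM or less in every genotype). Over 36 of its 1154 exon bases nhr-63 overlaps 21ur-13193 on the opposite strand. That gene was itself called in the double mutant against wild-type (0.557 CPM in wild-type, 1.53 in the double mutant). Reads that matched more than 1 position were set apart by the counting, so near-identical receptor genes may have lost reads.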

How the data were processed

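Whole-worm RNA of 4 genotypes was sequenced in 12 libraries, 3 per genotype. The authors deposited raw counts of reads per gene, 1 table per sample, with no normalization, per the file contents. Per the submitters' processing notes, TopHat2, HTSeq, DESeq2 and FastQC 0.11.5 were among their tools. Not given in the sources used here are the build, the annotation and the strand setting. For each count in a gene the tables held 0.975 to 0.983 reads under no feature, and these summary lines stayed out of library sizes and tests.

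Symbols, chromosomes and exon lengths came from Ensembl release 115 of WBcel235, and no coordinates are given. The counts went into edgeR 4.0.16 (R 4.3.3): filterByExpr by genotype (minimum count 10, minimum total 15), TMM factors (0.921 to 1.1), 1 mean per genotype over all 12 libraries, robust quasi-likelihood tests (common biological coefficient of variation 0.1526) and Benjamini-Hochberg adjustment over 14390 genes. Standard errors and 95% intervals come from the same fit. The test was checked on simulated counts. Where a group held 1 to 3 counts, the ratio of pooled counts is given with an exact binomial interval.

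The text names the 4 metabolic receptors, every nhr gene called in the first 6 contrasts (full values for up to 8 per direction, those with the largest change and no overlap), the members of the role lists, and called members of the related lists. Members and lists were chosen with earlier results of these data known. The values of npr-14, F16B4.2, sri-18, nhr-149 and 21ur-13193 were added after the data were seen. Alternatives were RLE factors, no filter, a 2-fold minimum, DESeq2 1.42.0, fits to the compared libraries alone, the replicate number as a block, and leaving out each library. Replicate pairs differed by more than sampling noise (chi-square per degree of freedom 3.74 to 47.5). The labels do not say whether replicates were separate cultures, so p-values measure only the spread between these libraries.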

Additional observations from a re-analysis of the deposited data

Results flagged for a closer look

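The interaction of eat-2 and acs-20 was called for 1 nhr gene, nhr-87, where the effect of the eat-2 mutation differed between the backgrounds. The fitted interaction was a log2 of -6.462 (SE 1.19, adjusted p = 0.000269 in edgeR's quasi-likelihood test), and its size depends on the prior count, since wild-type held 1 count in 3 libraries: without wild-type replicate 1 it was -8.28. The 3 libraries of each genotype held 1 count for wild-type, 121 for eat-2, 76 for acs-20 and 98 for the double mutant, and every mutant library was above every wild-type library. The call held in each of the 12 fits without a library (adjusted p 0.000247 to 0.00174). Its cause was not tested.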

How the results depend on the processing

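The count of called nhr genes moved by more than 1.5 times under some settings. In acs-20 against wild-type it was 3 of 177, and 8 of 246 without a filter on low counts (4 up, 4 down). It was 7 of 177 with the replicate block (3 up, 4 down) and 6 of 177 in DESeq2 (3 up, 3 down). The shares of all genes called were 2.21% in the main fit, then 2.17, 3.13 and 3.35% in that order. The interaction was called for 1, and for 2 without a filter and in DESeq2, with 0.188, 0.399 and 0.869% of all genes called. With a change of at least 2-fold required, 9 remained in eat-2 against wild-type, 19 in the double mutant against wild-type, 15 in the double mutant against acs-20 and 15 in eat-2 against acs-20 (from 30). Of all genes 3.79, 6.29, 5.2 and 5.37% remained in those comparisons. The double mutant against eat-2 had 4, and 7 with the block (3 up, 4 down), with 2.11 and 4.54% of all genes called.

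Replicate numbers were not treated as pairing: 9 of 18 pairs of same-numbered libraries correlated above 0.1 (-0.0912 to 0.429), and 8 of 12 libraries correlated best with their own number. With the block the other counts were 24 in eat-2 against wild-type, 36 and 38 in the double mutant against wild-type and acs-20, 37 in eat-2 against acs-20 and 1 for the interaction. In that order 10.3, 22, 16.8, 13.6 and 0.389% of all genes were called. The block ended the calls of nhr-76 (adjusted p = 0.0528) and nhr-106 in eat-2 against wild-type and of nhr-180 in the double mutant against wild-type.

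Leaving out 1 library gave 7 to 20 in eat-2 against wild-type, 2 to 4 in acs-20 against wild-type, 21 to 35 in the double mutant against wild-type, 3 to 4 against eat-2, 11 to 32 against acs-20, 1 to 1 for the interaction and 15 to 36 in eat-2 against acs-20 (15, 16 and 17 without acs-20 replicate 3, eat-2 replicate 1 and acs-20 replicate 2). In these fits the share of all genes called moved as well. It ran from 3.94 to 8.71% in eat-2 against wild-type and from 1.09 to 2.35% in acs-20 against wild-type. For the double mutant it ran from 10.8 to 18.2% against wild-type, 1.05 to 2.95% against eat-2 and 6.25 to 13.8% against acs-20. It was 0.0547 to 1.02% for the interaction and 6.84 to 11.4% in eat-2 against acs-20. Of 90 calls 40 held in all 12 such fits, and none reversed direction under any setting. Without eat-2 replicate 1 and double mutant replicate 1 together, a setting added after the data were seen, the counts were 15, 3, 25, 3 and 22 in the 5 pairwise comparisons in the order above, and 19 in eat-2 against acs-20. Of all genes 6.3, 2.49, 12, 0.928 and 8.01% were called there, and 7.79% in eat-2 against acs-20. The cause of these shifts was not tested. Low depth limits the receptor genes near 1 CPM, for which a library holds few counts.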
